A study of Mus musculus with 4 samples.

Results

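The cells described here are droplet barcodes from mouse hearts, sorted as CD31+/CD45- and holding an endothelial transcript, in which the transcripts of Vwf, Prss23 and Ptn were found together or apart. The group is labelled as vein cells, a label that the markers of many P2 cells go against. Vwf encodes von Willebrand factor, the blood-clotting glycoprotein that endothelial cells store in Weibel-Palade bodies, Prss23 encodes a secreted serine protease, and Ptn encodes pleiotrophin, a heparin-binding growth factor. Cells were selected on these genes in the libraries of postnatal day (P) 2 and adult hearts. UMIs (unique molecular identifiers, each standing for 1 captured transcript) of Vwf, Prss23 and Ptn were summed per cell, and a cell was kept when this sum was at least 3, exceeded the sum of the artery genes Cxcl12, Glul, Alpl, Nebl and Stmn2 and that of the large artery genes Fbln5, Eln, Gkn3, Clu and Htra1, and when no UMI of the lymphatic genes Lyve1, Mmrn1, Reln and Pdpn was present. All cells had at least 1 UMI of the endothelial genes Fabp4, Cldn5 or Aplnr and none of the endocardial genes Npr3 and Tmem108. The rule found 51 cells of 5884 barcodes at P2 and 55 of 4242 in the adult, 106 of 10126 in all. They are called Vwf/Prss23/Ptn cells below. They were set beside the cells of the same gate and library with no UMI of the 3 genes, 3001 at P2 and 3640 in the adult, called comparison cells. Since Vwf, Prss23 and Ptn chose the cells, their levels are a description only.

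Veins collect blood from the capillary bed at low pressure, and venous endothelium is the main site at which leukocytes leave the circulation. Its identity is set by the nuclear receptor Nr2f2 (COUP-TFII), which holds Notch signalling down, and it is marked by the receptor Ephb4, whose ligand Efnb2 sits on arterial cells. In the heart, the coronary veins drain the capillaries of the ventricular wall, and they form a small share of an endothelium that consists mostly of capillary cells.

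The series holds single-cell libraries of heart endothelium at 4 stages, with 1 library per stage and no replicate. Hearts of C57Bl6J mice were pooled, 21 animals for P2 and 6 for the adult library at an age of 8 weeks, and both carried the same genotype with no treatment. P2 and adult hearts were digested with collagenase II followed by collagenase/dispase, red cells were lysed in the adult sample, and CD31+/CD45- cells were sorted, frozen, thawed and sorted again for live cells. With 1 library per stage no difference between stages or groups of cells could be tested, and ratios, levels and shares carry exact 95% intervals that cover counting error only. The intervals do not hold the variation between animals, which cannot be told apart from that between cells in a pool.

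The P2 library held 29645059 UMIs with a median of 4531.5 per barcode, and the adult library 7650091 UMIs with a median of 1510. The Vwf/Prss23/Ptn cells were slightly deeper than their comparison cells, with a median depth of 5070 UMIs where that of P2 comparison cells was 4279, and of 1657 where that of adult comparison cells was 1455. The 2 files shared 39 barcode sequences, where 33.9 would be shared by random draws, and none of the shared barcodes was a Vwf/Prss23/Ptn cell. Doublets were scored and not removed: 5 of the 51 P2 cells and 1 of the 55 adult cells had a Scrublet score over 0.15. Mitochondrial transcripts took a median of 3.57% of the UMIs of the P2 cells and 6.04% of those of the adult cells, against 3.03% and 4.19% in the comparison cells.

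The same rule chose differently composed cells at the 2 stages. At P2, Ptn supplied 441 of the 541 UMIs of the 3 genes (81.5%), Prss23 70 and Vwf 30. In the adult, Vwf supplied 198 of 320 (61.9%), Prss23 105 and Ptn 17. Ptn was found in 46 of the 51 P2 cells and in 6 of the 55 adult cells, Vwf in 15 and 46, and Prss23 in 13 and 33. The summed UMIs ran from 3 to 60 with a median of 7 at P2 and from 3 to 19 with a median of 5 in the adult. No P2 cell reached the limit through Vwf alone and 26 did so through Ptn alone, whereas 20 adult cells held Vwf alone, 7 Prss23 alone and 1 Ptn alone.

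**Figure D1:**
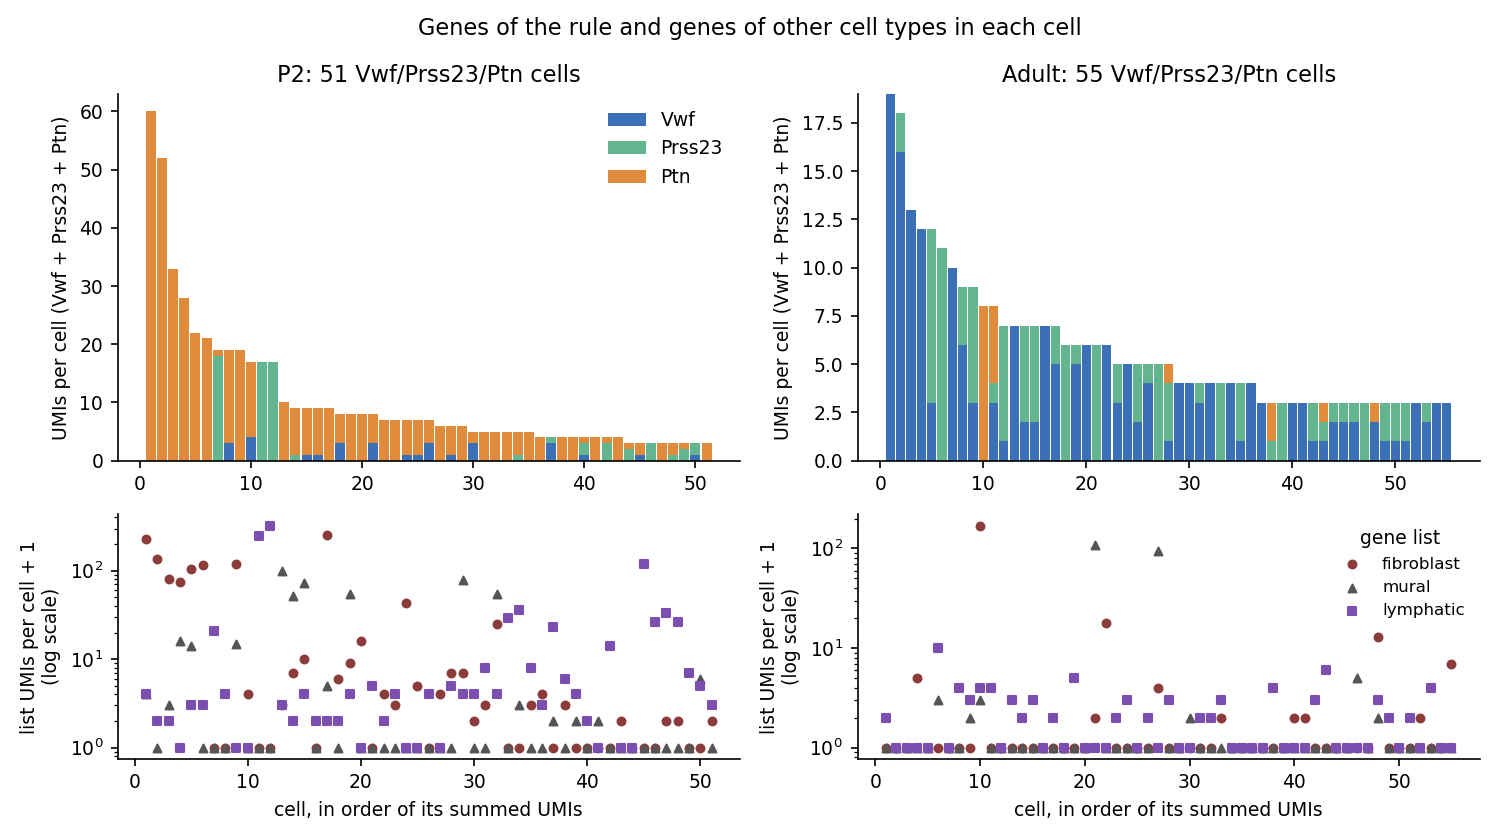
Each bar in the upper panels is 1 Vwf/Prss23/Ptn cell, with its UMIs of Vwf, Prss23 and Ptn stacked, and the lower panels give the UMIs of the fibroblast, mural and lymphatic gene lists in the same cells plus 1, on a log scale. At P2 the bars are mostly Ptn and many of the cells with the highest bars also held fibroblast or mural UMIs, while in the adult the bars are mostly Vwf and Prss23 and 3 cells held 20 or more fibroblast or mural UMIs.

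Markers of other cells were present in many of the P2 cells. At least 2 UMIs of the mural, fibroblast, cardiomyocyte, platelet or leukocyte lists were found in 33 of 51 P2 cells (64.7%), against 22.8% of the P2 comparison cells. In the adult, 11 of 55 cells (20.0%) and 11.1% of the comparison cells held them. The 8 fibroblast genes summed to 4316 CPM (UMIs of a gene or list scaled to 1000000 UMIs of the set) in the P2 cells against 100.4 in the comparison cells, with Col3a1, a fibrillar collagen, the most abundant at 487 UMIs. The 11 mural genes, those of pericytes and smooth muscle, summed to 1603 against 47.8 CPM, led by Rgs5 at 192 UMIs, while Myh11 of mature smooth muscle was at 0. In the adult the sums were 2121 against 472 CPM for fibroblast genes, led by Dcn at 114 UMIs with Pdgfra and Tcf21 at 0, and 2092 against 325 CPM for mural genes, led by Acta2 at 72 UMIs with Cspg4 at 0. The leukocyte list was at 1 UMI in each stage's cells and Ptprc (CD45), against which cells were sorted, was at 0 in both. The cardiomyocyte list came to 11 UMIs at P2 and 6 in the adult.

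High counts of other-cell transcripts were found in 15 of the P2 cells. Of these, 10 cells held between 24 and 250 fibroblast UMIs and 6 held between 51 and 98 mural UMIs. These 15 cells together (1 was in both groups) carried 295 of the 441 Ptn UMIs and only 2 of Vwf and 1 of Prss23. They held a median of 3 UMIs of the pan-endothelial list and of 3 of the gate genes, so the endothelial label rests on few transcripts in them. A further 2 P2 cells held 225 and 245 UMIs of Ccl21a, the chemokine of lymphatic endothelium, with Prss23 at 17 UMIs in each and no Ptn or Vwf. Outside the gate, 143 P2 barcodes with 20 or more fibroblast UMIs had Ptn in 52.4% and at 760 CPM, at a median depth of 5740 UMIs. No P2 barcode with 20 or more fibroblast UMIs lacked endothelial UMIs, so the 143 are a mixed set. Without the limit on Npr3 and Tmem108 5606 P2 barcodes met the gate and with it 3751, so barcodes with UMIs of these endocardial genes lie outside the gate. An endocardial cell with no captured UMI of either gene could still meet it. The part of endocardial cells in the 143 was not tested. Gated P2 cells with no mural or fibroblast UMI had Ptn in 4.88% (exact binomial interval 4.12 to 5.74%) and at 20.9 CPM, at a median of 4202 UMIs. Vwf was also more frequent in the 143 fibroblast-bearing barcodes, in 36.4% and at 109 CPM against 5.62% and 25.4 CPM in those gated cells, and Prss23 was not, at 3.50% against 8.88%. In the adult, 32 such barcodes outside the gate had Vwf in 40.6% and at 269 CPM, at a median depth of 3900 UMIs, against 5.20% and 60.6 CPM in gated cells with no mural or fibroblast UMI. The 5 adult barcodes with 20 or more fibroblast UMIs and no endothelial UMI, at a median of 4115 UMIs, held no Vwf or Ptn. Prss23 was found in 2 of these 5. In the adult, 1 cell held 169 fibroblast UMIs and 8 of the 17 Ptn UMIs, and 2 cells held 94 and 108 mural UMIs. Without that 1 cell the adult fibroblast sum was 488 CPM, and without those 2 the mural sum was 115 CPM. These values go against the vein label for a large part of the P2 cells, and for that reason the group is named by its genes. Values called restricted were computed without cells, on both sides, that held 2 or more UMIs of the other-cell lists or of Ccl21a or Prox1. This left 15 P2 and 44 adult Vwf/Prss23/Ptn cells, against 2305 and 3231 comparison cells.

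The cells made up 1.36% of the gated cells at both stages, 51 of 3751 at P2 (exact binomial interval 1.01 to 1.78%) and 55 of 4030 in the adult (1.03 to 1.77%). With every cell thinned to 1000 UMIs the shares were 0.819% (34 of 4153 gated cells) and 0.721% (22 of 3050), with 996 adult cells too shallow for this left out. Restricted to cells without other-cell, Ccl21a or Prox1 UMIs the P2 share was 0.562%. With Ptn left out of the sum 10 P2 cells remained, or 0.267%, against 50 adult cells. In gated cells with no mural or fibroblast UMI, the P2 library had Vwf detected in 5.62% and Prss23 in 8.88% at a median depth of 4202 UMIs, and the adult library had them in 5.20% and 3.34% at 1422 UMIs. The cells with 3 UMIs, just inside the limit, numbered 8 at P2 and 19 in the adult, and those with 2, just outside, numbered 15 and 16. Their venous genes summed to 3447 inside and 3168 CPM outside at P2, and to 14634 and 5445 CPM in the adult. Single cells weighed on the adult sum inside the limit: 1 held 132 venous and 12 fibroblast UMIs, and another held 55 and 6.

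Adult Vwf/Prss23/Ptn cells carried higher levels of most genes of a venous list and lower levels of most genes of a capillary list. A gene was called higher when the ratio of its CPM to that of the comparison cells was at least 2 and lower when it was at most 0.5, among genes with a mean CPM of at least 50 over both sets, with the 22 genes of the rule left out. A gene near 0 in comparison cells could pass the limit on its level in the Vwf/Prss23/Ptn cells alone and then had to differ. Of 3097 genes tested in the adult, 253 were called higher (8.17%) and 227 lower (7.33%). In the venous list 14 of 20 genes were tested and 12 of these were called higher and none lower, with a median ratio of 8.35 against 0.999 over all genes. In the capillary list 11 of 17 tested genes were called lower and none higher, with a median ratio of 0.406. With the limit of 50 CPM set on the comparison cells alone, an alternative chosen after the values were seen, 3.26% of 3069 genes were called higher and 12.4% lower, and the counts were 7 of 9 venous genes higher and 12 of 18 capillary genes lower. The venous median was then 5.12 against 0.905 over all genes. In the restricted set, where 9.19% of 3090 genes were called higher and 8.16% lower, 14 of 16 venous genes were called higher and 10 of 17 capillary genes lower.

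Among regulators and receptors of venous identity, Nr2f2 had 20 UMIs in 14 of the 55 adult cells and lay at 196 against 20.0 CPM, a ratio of 9.83 (5.80 to 15.8) and a restricted ratio of 11.9. Ephb4 had 32 UMIs in 24 cells and a ratio of 2.38 (1.62 to 3.39), 2.75 when restricted. Nrp2, a co-receptor for VEGF-C and semaphorins, was measured at 177 against 185 CPM, a ratio of 0.955 (0.564 to 1.52) and a restricted ratio of 1.27. Flt4, the VEGF-C receptor VEGFR3, had a ratio of 3.48 (1.64 to 6.56), 3.56 when restricted. Nr2f2 and Ephb4 were thus called higher and Nrp2 was not. Nr2f2, at 20.0 CPM in the comparison cells, passed the level limit only through the Vwf/Prss23/Ptn cells and then had to be called higher. With the limit on the comparison cells alone it was not tested, while Ephb4 was called higher and Nrp2 was not.

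Genes through which venules take up leukocytes differed in how many cells carried them. Vcam1, an adhesion molecule for leukocyte integrins, was found in 28 adult cells with 57 UMIs, at 559.8 against 57.2 CPM, a ratio of 9.78 (7.26 to 13.0). Icam1, another integrin ligand, had a ratio of 3.94 (2.72 to 5.55). Their restricted ratios were 12.9 and 4.02. The P-selectin gene Selp and the chemokine receptor gene Ackr1, markers of postcapillary venules, each had 9 UMIs, Selp in 3 cells and Ackr1 in 1, and both were below the level limit. Sele had no UMI in the adult cells. Of the 7 tested genes of the leukocyte adhesion list 2 were called higher, Vcam1 and Icam1, and when restricted 3 of 8, with Ackr1 added. Ackr1, with its UMIs in 1 cell, passed the level limit there only through the Vwf/Prss23/Ptn cells and then had to be called. With the limit on the comparison cells alone 2 of 7 were higher, Vcam1 and Icam1. Ly6c1 and Ly6a, which are abundant in heart capillaries, were measured at ratios of 0.547 and 0.923.

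Lrg1, a secreted leucine-rich glycoprotein of venules, had 61 UMIs in 14 adult cells and 28 in all 3640 comparison cells, a ratio of 133 (83.6 to 216) and a restricted ratio of 178. Plvap, the protein of endothelial diaphragms, had 46 UMIs in 14 cells against 53, a ratio of 52.9 (34.8 to 80.0) and a restricted ratio of 34.7. Lrg1 and Plvap each had UMIs in 25.5% of the adult cells and in under 1% of the comparison cells, so most cells of the group had no UMI of Lrg1, and most none of Plvap, at this depth. Igfbp5, an insulin-like growth factor binding protein, had a ratio of 27.3 (20.2 to 36.5), 63.6 when restricted, and is also a gene of the endocardial list. Of that list 2 of 2 tested genes were called higher in the adult, Igfbp5 and Cytl1 at 8.82 (6.30 to 12.1), both also when restricted. Igfbp5 passed the level limit only through the Vwf/Prss23/Ptn cells and then had to differ, and with the limit on the comparison cells alone Cytl1 was the 1 gene tested and was called higher. The 13 genes of the list summed to 1336 against 125 CPM (1128 against 90.7 when restricted). The list exceeded the 95th percentile of the comparison cells in 25 of 55 adult cells and in 18 of 44 when restricted, and the part of endocardial cells in the adult values was not tested. Cpe, a carboxypeptidase that trims peptide hormones, had a ratio of 20.8 (16.0 to 27.0) with UMIs in 26 cells and a restricted ratio of 17.2. Apoe, apolipoprotein E, had a ratio of 6.92 and a restricted ratio of 6.47, with 111 of 423 UMIs in 1 cell. The matrix proteins Bgn and Mgp had ratios of 10.0 and 5.12, and restricted ratios of 23.9 and 6.30.

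Il33, Lbp, Colec11, Ctsh, Pdia5, Spint2 and Gpm6a were among the 12 adult genes with the highest lower bounds. Il33, a nuclear cytokine released on damage, had 12 UMIs in 7 cells and a ratio of 36.6 (16.3 to 78.5). Lbp, which binds bacterial lipopolysaccharide, had 10 UMIs in 9 cells and a ratio of 46.9 (18.4 to 116), and Colec11, a collectin of the lectin complement pathway, 16 UMIs in 7 cells and 36.1 (18.2 to 69.5). The protease gene Ctsh had a ratio of 18.5 (11.5 to 28.7) and Pdia5, a disulfide isomerase, 17.2 (7.94 to 34.2). Spint2, a membrane-bound inhibitor of serine proteases, was the most widely found of these, with 39 UMIs in 28 of 55 cells, a ratio of 16.1 (11 to 23.0) and a restricted ratio of 17.9. Gpm6a, a membrane glycoprotein, had 12 UMIs in each set and a ratio of 60.9 (25 to 148). In the restricted set 10 of the 12 stayed called, and Gpm6a and Colec11 fell below the level limit.

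Car4, a carbonic anhydrase on the capillary surface, had 2 UMIs in 1 of 55 cells against 2296 in the comparison cells, a ratio of 0.0531 (0.00642 to 0.192) and a restricted ratio of 0.0699. Aqp7, a glycerol channel, had a ratio of 0.0738 (0.0271 to 0.161), Rbp7, a retinoid-binding protein, 0.157 (0.0913 to 0.251), and Rgcc, a cell cycle regulator of capillary cells, 0.239 (0.174 to 0.320). Gpihbp1, which carries lipoprotein lipase across the capillary wall, lay at 864 against 2418 CPM, a ratio of 0.358, with UMIs in 32 cells. Kdr, the main VEGF receptor, had a ratio of 0.239 (0.146 to 0.369), 0.238 when restricted, whereas Cd36, the fatty acid transporter, was at 0.730 and Aqp1, the water channel, at 1.03, both inside the limits. Among angiogenic genes 6 of 7 tested were called lower, Cd34 at 0.474, Col4a1 at 0.386 and Col4a2 at 0.332 among them. When restricted 5 of 7 were, and Cd34, at 0.585, was no longer called.

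Of 9 arterial genes tested in the adult, 3 were called lower and 2 higher, where 7.33% and 8.17% of all genes were. When restricted 4 of 8 were called lower and 1 higher, and with the level limit on the comparison cells alone 5 of 11 were lower and 2 higher. Hey1, a Notch target of arteries, had no UMI in the adult cells against 750 in the comparison cells, at least 4.10-fold lower when the set is given a floor of 3 UMIs. Sox17, an arterial transcription factor, had a ratio of 0.366 (0.175 to 0.674), and the Notch ligand Dll4 one of 0.285 (0.0587 to 0.837) on 3 UMIs. Gja5, the arterial connexin 40, had 1 UMI against 228 and was below the level limit. Efnb2, the arterial ligand of Ephb4, was at 0.662 (0.242 to 1.45). Gja4, connexin 37, was called higher at 2.13 on 11 UMIs in 4 cells, and its restricted ratio was 0.258. Vegfc, a ligand of Flt4, was called higher at 2.49 (1.55 to 3.81). Ccdc85a, the NF-kB adaptor gene Bcl10 and the Arf exchange factor gene Cyth1 also had no UMI in the adult cells and were at least 4.51-fold, 4.43-fold and 3.95-fold lower.

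**Figure D2:**
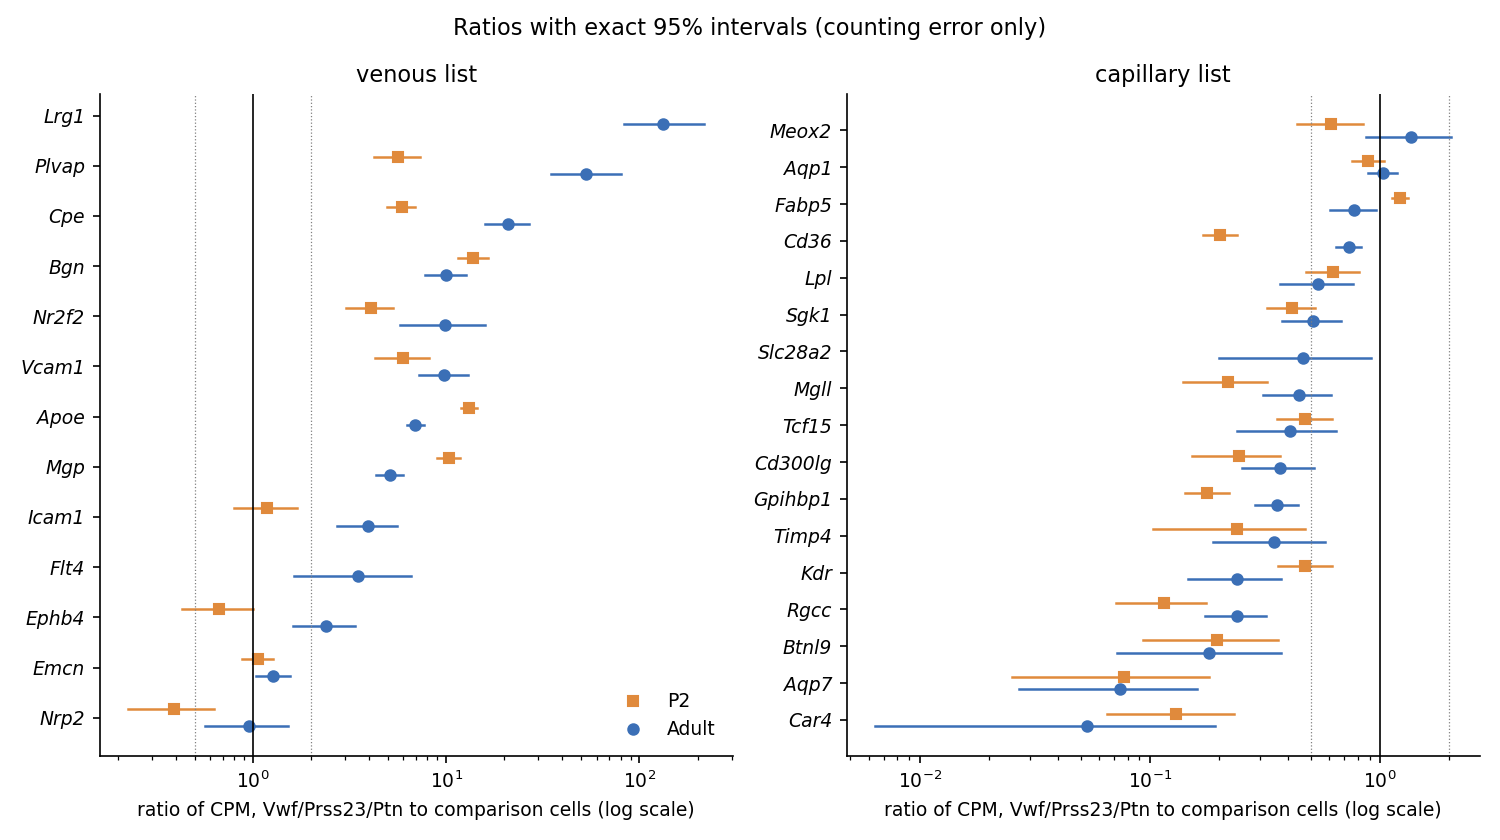
Points give the ratio of CPM in Vwf/Prss23/Ptn cells to that in comparison cells for tested genes named from the venous and capillary lists, with exact 95% intervals of counting error, on a log scale, and dotted lines mark ratios of 0.5 and 2. In the venous panel most points lie right of the upper line, from Lrg1 at 133 in the adult down to Nrp2 at 0.390 at P2, and in the capillary panel most lie left of the lower line.

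In the haemostasis list 1 of 8 tested genes was called higher in the adult, where 8.17% of all genes were called higher and 7.33% lower. With the level limit on the comparison cells alone none of 6 was, and the gene called above was not among the 6. When restricted the same gene was the 1 called higher of 8, where 9.19% of all genes were. This gene was Entpd1, which breaks down the platelet agonist ADP, at 3.21 (1.63 to 5.71), while the thrombin receptor Thbd was at 1.56 (1.14 to 2.09) and Anxa2, a cofactor of plasmin formation, at 1.61 (1.27 to 2.00), 1.72 when restricted. Among genes of Weibel-Palade bodies and secretion, Cd63 was called higher at 3.26 (2.11 to 4.84), 2.25 when restricted, and Igfbp7 lower at 0.401, of 6 tested, and the same 2 genes were called when restricted. None of the 7 tested flow-response genes was called higher, with Klf2 at 1.43 and Klf4 at 1.46, and 1, Slc9a3r2, was called lower at 0.487. When restricted none of 6 was called in either direction, with Slc9a3r2 at 0.565. In the list of matrix and basement membrane genes 5 of 15 were called lower, Sparc at 0.421 and Sparcl1 at 0.312 among them, and only Bgn and Mgp higher. When restricted 6 of 15 were lower and the same 2 higher. Of 13 transcription factors tested, Nr2f2 alone was called higher and 6 were called lower, such as the capillary factor Tcf15 at 0.406 and Ets1 at 0.338. When restricted Nr2f2 alone was higher and 5 of 12 were lower, and with the level limit on the comparison cells alone, which Nr2f2 did not reach, 6 of 12 were lower. Pecam1 (CD31), on which cells were sorted, was at 1.03 (0.815 to 1.28), and Tek, the angiopoietin receptor Tie2, was called higher at 2.05, 2.15 when restricted.

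Of 10 immediate-early genes 3 were called higher in the adult, Fos, Fosb and Egr1, with a median ratio of 1.24, where 8.17% of all genes were called higher. When restricted 1 was, Egr1, where 9.19% of all genes were, with a median of 1.14 against 1.03 over all genes. Fos was called higher at 2.00, with 131 of its 389 UMIs in 1 cell and a restricted ratio of 1.37, and Egr1 at 3.40 with UMIs in 11 cells. Such genes respond to tissue digestion, and the part of handling in these values was not tested. All 3 tested haemoglobin genes were called lower, also when restricted. Hba-a1 had no UMI in the adult cells against 1174 in the comparison cells and was at least 6.42-fold lower, and Hbb-bs had 1 against 1190. Lyz2, a macrophage lysozyme, had no UMI against 1076 and was at least 5.89-fold lower. When restricted, which takes cells with 2 or more leukocyte UMIs out of the comparison cells, the leukocyte list was at 13.8 against 10.4 CPM and Lyz2 was below the level limit. Of the 7 MHC genes tested, the class II genes H2-Ab1 and H2-Eb1 were called higher at 2.15 (1.28 to 3.39) and 2.43 (1.2 to 4.41) and the class II chaperone gene Cd74 lower at 0.291 (0.125 to 0.574). With the level limit on the comparison cells alone 1 of 6 was higher, H2-Ab1, and 1 lower, and H2-Eb1 was not tested. When restricted, 3 of 7 were called higher and none lower, and H2-Ab1 was at 7.80, H2-Eb1 at 15.6 and Cd74 at 1.85 (0.793 to 3.70).

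At P2, most capillary genes were again lower, the count of higher venous genes depended on the level limit, and genes of the fibroblast and mural lists were among those with the highest ratios. Of 3134 genes tested, 185 were called higher (5.90%) and 144 lower (4.59%). In the venous list 8 of 12 tested genes were called higher and 1, Nrp2, lower, with a median ratio of 5.75 against 1.03 over all genes. In the capillary list 12 of 16 were called lower, with a median of 0.241. With the limit on the comparison cells alone, where 1.82% of 3016 genes were called higher and 6.90% lower, 3 of 7 venous genes were called higher, Mgp, Apoe and Cpe, and 1 lower, with a median of 1.18 against 0.973 over all genes, and 13 of 17 capillary genes were called lower. In the restricted set, with 8.60% of 3128 genes called higher and 5.40% lower, 8 of 12 venous genes were called higher, none lower, and 9 of 16 capillary genes lower. Of the 185 genes called higher 85 were called higher in both sets, and of the 144 called lower 73 were.

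Nr2f2 had 56 UMIs in 28 of the 51 P2 cells and lay at 193 against 47.5 CPM, a ratio of 4.06 (3.04 to 5.34) and a restricted ratio of 2.86 (1.47 to 5.05). Ephb4 was at 0.669 (0.427 to 0.999) and Nrp2 was called lower at 0.390 (0.227 to 0.626), with restricted ratios of 1.02 and 0.761. Apoe had the most UMIs of the list, 578, and a ratio of 13.1 (11.9 to 14.4). Mgp was at 10.3 (8.95 to 11.8), Bgn at 13.8 (11.5 to 16.5) and Cpe at 5.88 (4.96 to 6.93), and their restricted ratios were 10.9, 5.31 and 8.97. Vcam1 was at 5.96 and Plvap at 5.61, with restricted ratios of 3.30 and 6.94. Lrg1 had 6 UMIs in 3 P2 cells, Selp 1 and Ackr1 1, all below the level limit. Thus of the venous identity genes Nr2f2 was called higher at P2, in both sets, and Ephb4 in neither. Nr2f2, at 47.5 CPM in the comparison cells, passed the level limit only through the Vwf/Prss23/Ptn cells. With the limit on the comparison cells alone it was not tested, and Ephb4 was tested and not called higher.

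The 12 P2 genes with the highest lower bounds included genes of the fibroblast and mural lists. Col1a1, the fibrillar collagen of fibroblasts, had 133 UMIs in 11 P2 cells against 8 in 3001 comparison cells, a ratio of 828 (408 to 1957). Tcf21, a transcription factor of cardiac fibroblasts, had 41 UMIs in 9 cells against 1, a ratio of 2041 (346 to 82554), and Ogn, a small proteoglycan, 29 against 2, a ratio of 722 (183 to 6243). Col3a1, Col1a2, Col6a1, Gpc3, Dlk1 and Cygb had ratios between 76.6 and 448. The contractile genes Acta2 and Tpm2 and the pericyte gene Higd1b had ratios of 169, 80.4 and 87.5. None of the 12 was called in the restricted set, in which the fibroblast list held 3 UMIs and the mural list 2 by the way that set was cut.

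The capillary list gave 12 of the 144 genes called lower at P2. All 8 genes with the lowest upper bounds were also called lower in the restricted set. Cd36 had 133 UMIs at 458 against 2264 CPM, a ratio of 0.203 (0.170 to 0.240) and a restricted ratio of 0.380, and Gpihbp1 had ratios of 0.178 (0.142 to 0.220) and 0.326. Rgcc was at 0.115 (0.0711 to 0.176), Rbp7 at 0.118 (0.0790 to 0.170), Car4 at 0.130 (0.0648 to 0.233) and Aqp7 at 0.0776 (0.0252 to 0.181). Ppp1r16b, a phosphatase regulator, had 1 UMI against 1594, a ratio of 0.0312 (0.000790 to 0.174). Sox17 was at 0.151 (0.0726 to 0.279). The endothelial junction gene Cdh5 was called lower at 0.325 (0.264 to 0.394), with a restricted ratio of 0.546, and Pecam1 was at 0.699 and 0.945.

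Procr, the endothelial protein C receptor, was the single gene of 8 haemostasis genes called higher, where 5.90% of all P2 genes were. Its ratio was 7.27 (4.62 to 11), and 34.4 when restricted. When restricted 3 of 9 haemostasis genes were called higher, Procr, Tfpi and Entpd1, and 1 lower, Plat, where 8.60% and 5.40% of all genes were. With the level limit on the comparison cells alone none of 7 was higher, and Procr was not among the 7. Of 19 matrix and basement membrane genes 5 were called higher, Mgp, Bgn, Fbln2 at 4.21, Fn1 at 3.90 and Fbn1 at 5.23, and 2 lower, Sparcl1 at 0.412 and Nid2 at 0.269. When restricted 4 of 18 were called higher and 4 lower, and restricted ratios were 6.58 for Fbln2, 5.38 for Fn1 and 1.73 for Fbn1. The lymphatic list had Ccl21a called higher at 25.2 with 245 of its 485 UMIs in 1 cell, and Nts, a neuropeptide of lymphatic endothelium, at 3.94, 7.63 when restricted, with 119 of 363 UMIs in 1 cell. When restricted 2 of 2 tested genes of that list were higher, Nts and Fxyd6. The list then summed to 2887 against 507 CPM, and it exceeded the 95th percentile of the comparison cells in 5 of the 15 restricted cells. Prox1, the lymphatic master regulator, had 18 UMIs in 5 P2 cells and 2 in the adult cells. 

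Of the endocardial list 3 of 4 tested genes were called higher at P2, Igfbp5, Dlk1 and Cdh11, and its genes summed to 1482 against 236 CPM. Dlk1 and Cdh11 passed the level limit only through the Vwf/Prss23/Ptn cells, and with the limit on the comparison cells alone 1 of 2 was called higher, Igfbp5. The endocardial regulators Gata4 and Nfatc1 had 12 and 20 UMIs at P2 and 2 and 1 in the adult, below the level limit. In the restricted P2 set 2 of 3 tested genes were called higher, Igfbp5 at 9.14 and Nfatc1 at 4.95 (2.24 to 9.57), and the list summed to 1155 against 205 CPM. The list exceeded the 95th percentile of the comparison cells in 28 of 51 P2 cells and in 8 of the 15 restricted cells. The valve list summed to 404 against 35.3 CPM in the restricted P2 set, and its 3 tested genes, Cldn11, Postn and Pthlh, passed the level limit only through the Vwf/Prss23/Ptn cells, and so had to be called higher. With the limit on the comparison cells alone and no cells left out, Postn was the 1 valve gene tested and was called higher. The part of endocardial and valve cells in the P2 values was not tested.

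**Figure D3:**
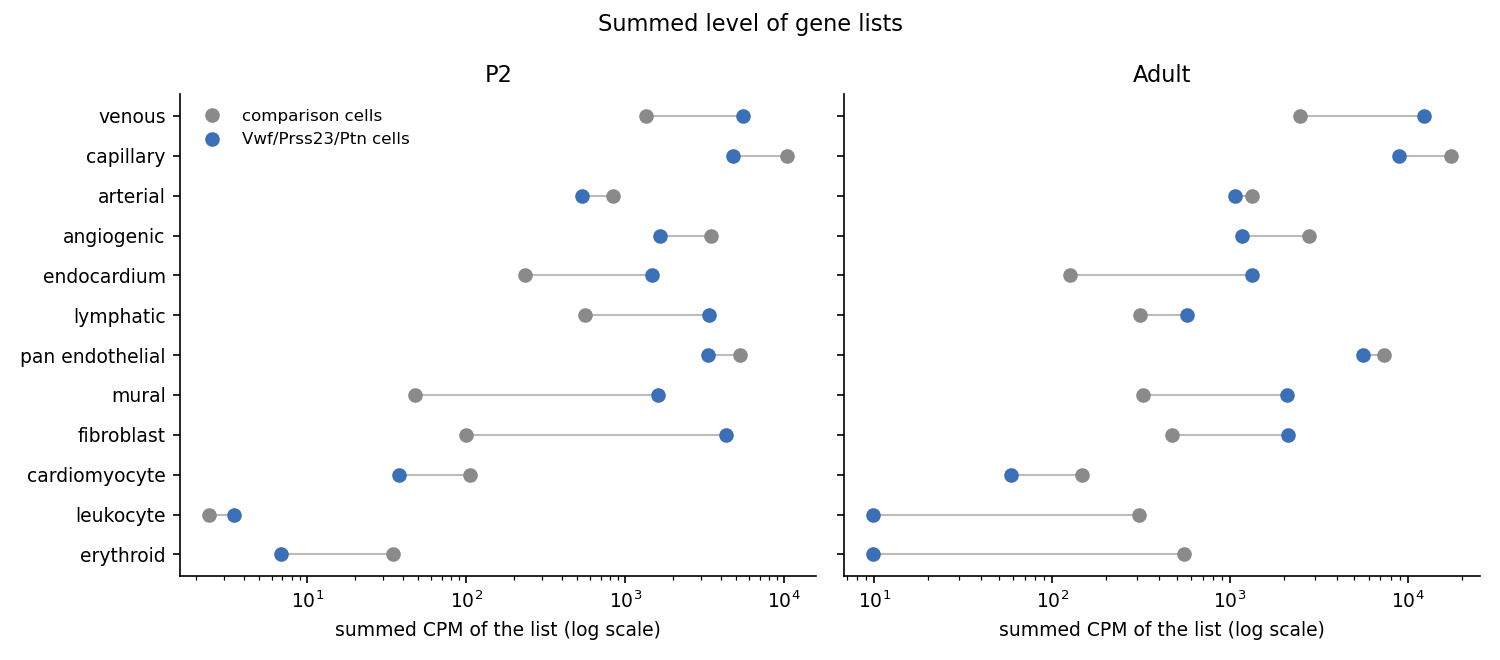
Dots give the summed CPM of 12 gene lists in Vwf/Prss23/Ptn cells and in comparison cells of each stage, on a log scale. Fibroblast and mural sums at P2 lay furthest apart, at 4316 against 100.4 and 1603 against 47.8 CPM, and the venous sums were 5515 against 1352 CPM at P2 and 12336 against 2462 CPM in the adult.

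Side by side, the stages shared part of their genes. The 65 genes called higher at both were 35.1% of those of P2 and 25.7% of those of the adult, and included Nr2f2, Vcam1, Plvap, Cpe, Apoe, Igfbp5, Lbp and Ctsh beside the fibroblast and mural genes Col3a1, Dcn and Acta2. The 43 genes called lower at both were 29.9% and 18.9%, and included Rgcc, Car4, Aqp7, Gpihbp1, Kdr, Rbp7, Cd34 and Sox17. Over all genes tested, 5.90% at P2 and 8.17% in the adult were called higher, and 4.59% and 7.33% lower. With the level limit on the comparison cells alone 55 genes were called higher at P2 and 100 in the adult, and their overlap was not counted. Of the shared higher genes named, Nr2f2, Plvap and Col3a1 passed the first limit only through the Vwf/Prss23/Ptn cells at both stages. They were not tested under the second. Vcam1 and Acta2 were tested under it only in the adult, Cpe and Igfbp5 only at P2, and Apoe and Dcn at both. In opposite directions 2 genes were called, which were singled out after their values were seen. Ednrb, an endothelin receptor, was at 2.12 (1.67 to 2.65) at P2 and at 0.494 (0.160 to 1.16) on 5 UMIs in the adult, with restricted ratios of 3.03 and 0.282. Igfbp3 was at 0.272 (0.140 to 0.476) and 2.29 (1.39 to 3.57), with 16 of its 20 adult UMIs in 1 cell and restricted ratios of 0.324 and 0.646.

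Veins and large arteries share matrix and secreted genes, so the cells were set beside large artery cells and artery cells of the same libraries. Large artery cells (357 at P2, 196 in the adult) had a sum of at least 3 UMIs of Fbln5, Eln, Gkn3, Clu and Htra1 that exceeded the other sums, and artery cells (585 and 1839) were cut likewise on Cxcl12, Glul, Alpl, Nebl and Stmn2. The adult Vwf/Prss23/Ptn cells were higher than adult large artery cells in Nr2f2 by 5.01 times (2.54 to 9.92), Ephb4 by 3.81 (2.31 to 6.21), Nrp2 by 6.12 (2.87 to 13.3), Lrg1 by 24.2 (12.9 to 49.3), Plvap by 3.17 (2.13 to 4.67) and Emcn, a sialomucin of veins and capillaries, by 2.73 (2.13 to 3.50). They were lower in Gja5, at 0.0360 times (0.000906 to 0.204), Gja4, at 0.498 (0.241 to 0.929), and Mgp, at 0.325 (0.275 to 0.381). Vcam1, at 1.60 times (1.17 to 2.18), was within a fold of 2 of large artery cells. Of the venous list, then, Nr2f2, Ephb4, Nrp2, Lrg1 and Plvap were over 2 times higher than in large artery cells in the adult, while Vcam1, Bgn, at 0.703, and Apoe, at 1.39, lay within a fold of 2 and Mgp was lower.

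At P2 the cells were higher than large artery cells in Nr2f2, by 2.12 times (1.54 to 2.88), and lower in Gja5, at 0.0222 (0.000561 to 0.125), and Gja4, at 0.154 (0.0910 to 0.246). They were not higher in Ephb4, at 0.562 times (0.354 to 0.854), in Plvap, at 0.676 (0.510 to 0.880), or in Lrg1, at 0.550 (0.195 to 1.26). Dcn, a proteoglycan in the fibroblast list, lay at 659.5 CPM in large artery cells at P2 and at 3956 CPM in the adult. It lay at 1024 and 1119.7 CPM in the Vwf/Prss23/Ptn cells, so its UMIs were found in both groups. Other-cell UMIs were present in 45.4% of the P2 and 26.0% of the adult large artery cells. The part of such cells in these ratios and Dcn levels, which were computed over all cells of each set, was not tested.

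**Figure D4:**
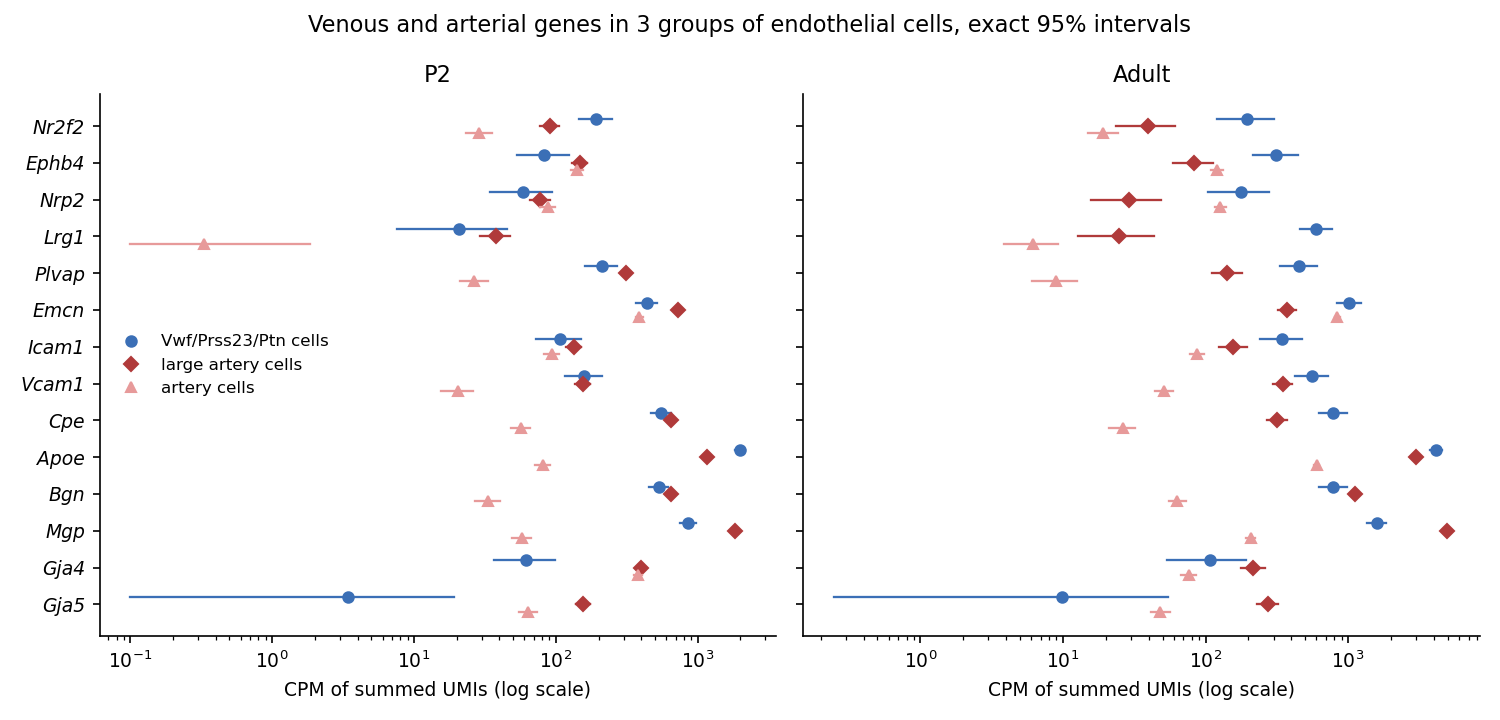
Points give the CPM of venous and arterial genes in Vwf/Prss23/Ptn cells, large artery cells and artery cells, with exact 95% intervals, on a log scale (lower ends under 0.1 CPM are drawn at 0.1). In the adult, Nr2f2 lay at 196 CPM in Vwf/Prss23/Ptn cells, 39.2 in large artery cells and 19.2 in artery cells, while Mgp was highest in large artery cells at both stages.

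The adult group was not uniform. By the genes that brought them in, 20 adult cells held Vwf alone, 26 Vwf with Prss23 or Ptn, and 9 Prss23 or Ptn without Vwf. The venous list summed to 16712 CPM (exact Poisson interval 15365 to 18146) in the cells with Vwf alone, to 10085 (9180 to 11056) in those with Vwf and another gene, and to 10276 (9001 to 11680) in those without Vwf. Of the 234 venous UMIs of the cells without Vwf 154 lay in the cell with 169 fibroblast UMIs, and without it their sum was 4614 CPM. Without its top cell the sum was 16153 CPM in the cells with Vwf alone and 7538 CPM in those with Vwf and another gene. The cells without Vwf also held most other-cell UMIs, 9046 CPM of mural and 7641 CPM of fibroblast genes, against 29.5 and 884 CPM in the cells with Vwf alone, with 202 of their 206 mural UMIs in 2 cells and 169 of their 174 fibroblast UMIs in 1. Nr2f2 was found in all 3 subsets, at 206, 155 and 263 CPM, whereas Lrg1 lay at 560.0, 887 and 87.8 CPM and Il33 at 29.5, 222 and 43.9 CPM. Other-cell UMIs divided the list itself. The 11 adult cells with them held 22334 CPM of venous genes and the 44 without them 8334 CPM, and part of the gap lay in Apoe, at 9689 against 1939 CPM, while Nr2f2 was at 206 against 193 CPM, Ephb4 at 137 against 385 CPM and Lrg1 at 378 against 688 CPM. Cells with Vwf alone were the shallowest, with a median of 1126.5 UMIs, and had the highest mitochondrial share, a median of 8.44%.

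The P2 cells were divided by Ptn. The 40 cells with more Ptn than Vwf and Prss23 together held 5527 CPM of fibroblast and 2028 CPM of mural genes, and 30 of them had other-cell UMIs. The 11 remaining cells held 15.7 and 94.1 CPM of these lists but 10432 CPM of lymphatic genes, against 1370 CPM in the 40. The 2 cells with Ccl21a carried 571 of the 665 lymphatic UMIs of the 11, and the other 9 held 1769 CPM. Venous genes summed to 6335 CPM (6012 to 6672) in the 40 and to 2604 CPM (2223 to 3032) in the 11, and capillary genes to 4060 and 7326 CPM. Nr2f2 lay at 186 and 220 CPM in the 2 sets. The 15 P2 cells with Vwf had 8114 CPM of venous genes against 4751 in the 36 without it, and 8 of the 15 also had other-cell UMIs.

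In single cells the venous list took a median of 0.492% of the UMIs of P2 Vwf/Prss23/Ptn cells (range 0.0552 to 2.86%) against 0.110% in comparison cells, and 0.732% (0 to 5.82%) against 0.169% in the adult. The 95th percentile of the comparison cells was exceeded by 34 of 51 P2 cells and 40 of 55 adult cells, and by 10 of 15 and 30 of 44 in the restricted sets. The capillary list took a median of 0.321% against 1.06% at P2 and 0.95% against 1.84% in the adult. The arterial list took medians of 0.0509% against 0.0523% at P2 and 0.0917% against 0.0885% in the adult. The cells and the comparison cells overlapped on both axes, and adult comparison cells with no Vwf, Prss23 or Ptn UMI reached a venous share of 5.42%.

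**Figure D5:**
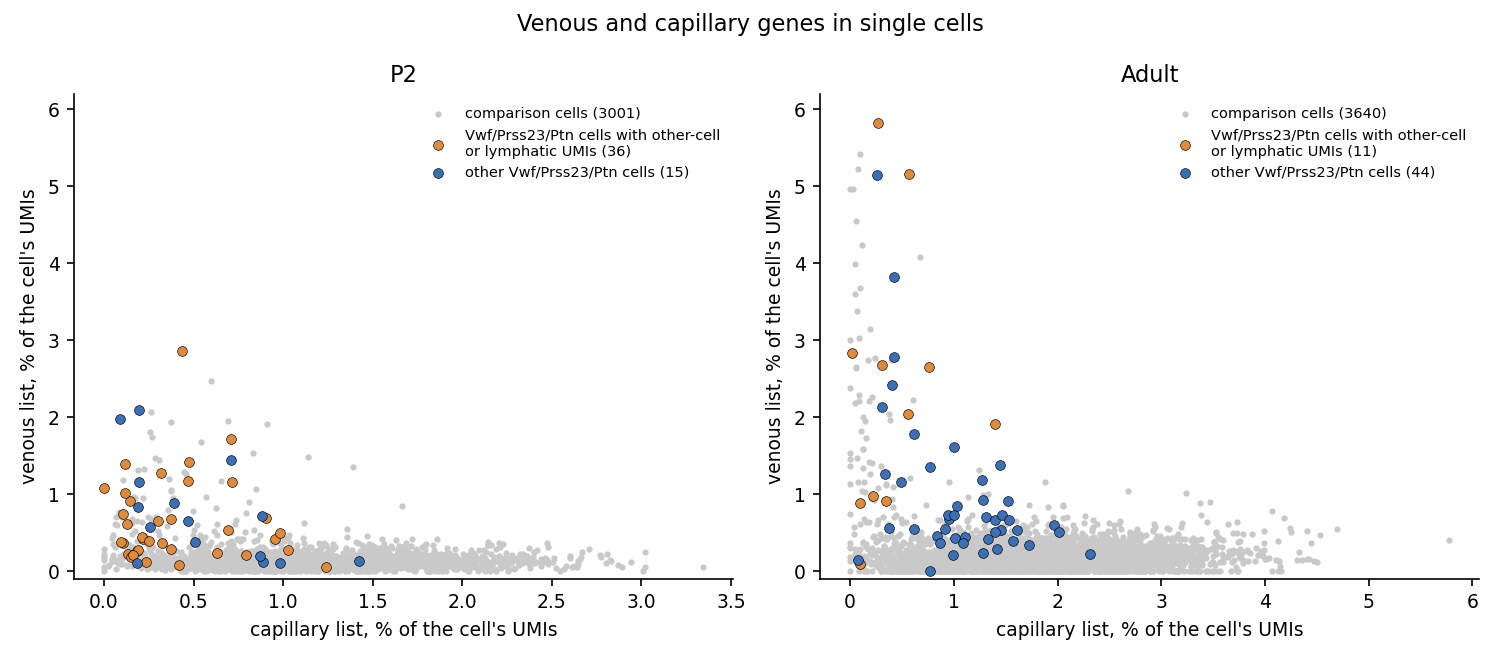
Each point is 1 cell, placed by the percent of its UMIs in the capillary list (horizontal) and the venous list (vertical), with comparison cells in grey and Vwf/Prss23/Ptn cells with and without other-cell or lymphatic UMIs in orange and blue. At both stages most Vwf/Prss23/Ptn cells lie above and to the left of the bulk of comparison cells, with median venous shares of 0.492% (P2) and 0.732% (adult) where the comparison cells had 0.110% and 0.169%.

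In the mm10 assembly (GRCm38) used for the files, Vwf lies on chromosome 6 from 125546774 to 125686679 on the forward strand, Prss23 on chromosome 7 from 89507783 to 89527187 and Ptn on chromosome 6 from 36714929 to 36810220, both on the reverse strand. UMIs are counted per gene from reads at one end of the transcript, so isoforms were not told apart, and levels of different genes are not compared per length.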

How the data were processed

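CD31+/CD45- sorted cells of P2 and adult mouse hearts were analysed, 1 library each. Per the labels and the study's methods, libraries were made with 10x Genomics droplets, and the submitters' processing notes name Cell Ranger 2.2 and the mm10 genome. The authors deposited UMI counts per gene and barcode for 27998 genes, and these deposited counts were used with no cell filter beyond the rule. The study's own cluster labels were not used here.

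UMIs were summed over the cells of each set and scaled to 1000000 UMIs (counts per 1000000, CPM). Ratios carry an exact conditional binomial 95% interval, sums an exact Poisson interval and shares a Clopper-Pearson interval. With 1 library per stage no test was made. Genes with a mean of at least 50 CPM over both sets were called at ratios of at least 2 or at most 0.5, without the 22 rule genes. A set at 0 was given a floor of 3 UMIs for a bound on the fold. Genes named in the text were, per stage, the 12 called higher with the highest lower bound and the 8 called lower with the lowest upper bound (each with UMIs in at least 10% of the set in which it was higher), defining markers fixed per cell type, and in each of 32 lists of 306 genes the called genes with the most UMIs. Members and lists were chosen with earlier results of these data known. Alternatives changed the UMI minimum, cell limits, doublet score, depth, comparison set, averaging and level limit. Leaving out Ptn, leaving out cells with Ccl21a or Prox1 UMIs, the splits by Ptn and by other-cell UMIs, the level limit on the comparison cells alone and the sums without top cells were chosen after seeing the data. Scrublet in scanpy 1.11.5 scored doublets at an expected 0.8% per 1000 barcodes. Scripts ran in Python 3.11.15 with NumPy 2.4.6, SciPy 1.17.1, pandas 2.3.3 and matplotlib 3.10.9 and were tested on simulated data. Gene positions were taken from GENCODE. Values of 1 gene that the rule for named genes picked are not reported here, and it stays within the counts and sums of its lists.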

Additional observations from a re-analysis of the deposited data

Results flagged for a closer look

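For 4 genes of the lists the ratio of Vwf/Prss23/Ptn cells to comparison cells lay on opposite sides of 1 at the 2 stages with intervals that excluded 1, and with 1 library per stage the difference between stages was not tested. Ephb4 had a P2 ratio of 0.669 (0.427 to 0.999) and an adult ratio of 2.38 (1.62 to 3.39), but without cells holding other-cell, Ccl21a or Prox1 UMIs they were 1.02 (0.506 to 1.82) and 2.75. Igfbp3, a growth factor binding protein, was at 0.272 and 2.29, with 16 of its 20 adult UMIs in 1 cell, and at 0.324 and 0.646 without such cells. Anxa2, a cofactor of plasmin formation, was at 0.853 and 1.61 (1.01 and 1.72 without such cells), and Fabp5, a fatty acid binding protein, at 1.22 and 0.768 (1.54 and 0.767).

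The rule also found barcodes in the embryonic libraries, which no comparison above used. The embryonic day (E) 12 file had not been cut to called cells, unlike the others, so its counts of barcodes are not counts of called cells. At E12 the rule found 7 of 897 gated barcodes, all 7 with Ptn and 6 with other-cell UMIs. At E15 it found 49 of 1468 (3.34%), of which 48 held Ptn and 42 held other-cell UMIs. Of the 318 UMIs of the 3 genes in the E15 barcodes, Ptn supplied 304, Vwf 10 and Prss23 4. Their fibroblast genes summed to 5371 CPM against 183 in the other gated E15 barcodes, and Nr2f2 lay at 55.9 against 80.5 CPM.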

How the results depend on the processing

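No paired analysis was possible because each stage had 1 library. The count of venous genes called higher and of capillary genes called lower stayed within 1.5 times the reported count at both stages under every alternative run, except that with the level limit on the comparison cells alone venous genes called higher numbered 3 of P2 and 7 of the adult. That limit gave 55 genes called higher at P2 and 100 in the adult with 382 lower, 1 fibroblast and 0 mural genes at P2, and 2 of each in the adult. The share of gated cells, 1.36% at both stages, was 0.933% at P2 and 0.695% in the adult with 5 UMIs required, and 0.819% and 0.721% when thinned. At P2 it was 0.639% without cells holding other-cell UMIs, 0.562% without those and cells holding Ccl21a or Prox1 UMIs, and 0.267% with Vwf and Prss23 only. Genes called higher at P2, 185 as reported, numbered 507 at a limit of 20 CPM, 80 at 100 CPM and 486 with Vwf and Prss23 only. Those called lower, 144, numbered 319, 73 and 246 under these and 232 with 5 UMIs required. In the adult, 253 called higher became 817 at 20 CPM, 104 at 100 CPM, 397 with 5 UMIs required and 121 when each gene's top cell was left out, and 227 called lower became 643 at 20 CPM, 105 at 100 CPM and 393 without the top cell. The 6 fibroblast genes called at P2 fell to 0 under both settings without other-cell UMIs and to 1 with Vwf and Prss23 only, and the 4 mural genes to 0, 0 and 1, with 8 at 20 CPM and 2 at 100 CPM. The 5 adult fibroblast genes fell to 0 within the study's cell limits, under both settings without other-cell UMIs, without the top cell and with Vwf and Prss23 only, to 2 in the depth window and to 3 with CPM averaged over cells. The 4 adult mural genes fell to 0 under both settings without other-cell UMIs and to 1 without the top cell, and numbered 7 at 20 CPM.

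Ratios of Col1a1, Gpc3, Ogn, Dlk1, Col1a2, Cygb, Higd1b, Tpm2 and Col6a1 at P2 became 0 under both settings without other-cell UMIs and with Vwf and Prss23 only, and those of Tcf21 and Acta2 became 0 with Vwf and Prss23 only. Adult Gja4 turned from 2.13 to 0.258 under both settings without other-cell UMIs. Leaving such cells out removes UMIs of their lists by construction, and for the other shifts the cause was not tested. A set at 0 UMIs of a gene allows up to 3 at this depth.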

Other observations

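Of the insulin-like growth factor binding proteins, Igfbp5 was called higher at both stages, at 6.74 (5.71 to 7.91) at P2 and with a restricted ratio of 9.14, and the adult cells had Igfbp4 called higher at 2.77 (1.76 to 4.17), 1.29 when restricted. In the restricted P2 set Igfbp4 was called higher too. Igfbp7 was called lower in the adult and had restricted ratios of 0.308 and 0.271, called lower at both stages. Among growth factor ligands 3 of 3 tested genes were called higher at P2, Igf1, Igf2 and Mdk, and 3 of 5 in the adult, Igf2, Bmp4 and Vegfc, with Pdgfb and Pdgfd lower. When restricted these were 2 of 4 at P2, without Igf2 at 1.89, and 3 of 5 in the adult, with Igf1 in place of Bmp4. Some of these genes passed the level limit only through the Vwf/Prss23/Ptn cells, and with the limit on the comparison cells alone 2 of 4 were higher and 1 lower at P2, with a median ratio of 1.46, and 1 of 3 higher and 2 lower in the adult, with a median of 0.317. Of the BMP and TGF-beta genes, Id2, an inhibitor of helix-loop-helix factors, was called higher at both stages, at 2.78 (2.28 to 3.35) and 3.11 (2.17 to 4.33), whereas Id1 was called lower at P2, at 0.379 (0.306 to 0.466), and was at 0.557 (0.433 to 0.704) in the adult. The receptor Bmpr2 was called higher in the adult at 2.65 (1.65 to 4.06) and the receptor Acvrl1 lower at 0.484 (0.231 to 0.892), with restricted ratios of 2.74 and 0.573, the latter no longer called. In the Notch list 2 genes passed the level limit at P2 and neither was called, but with the limit on the comparison cells alone 2 of 4 were lower, with a median ratio of 0.541. When restricted 1 of 3 was called higher at P2, Jag1, and none lower, with a median of 1.08. In the adult Hey1 and Dll4 were the 2 called lower of 5, also when restricted, and 3 of 6 were lower with the limit on the comparison cells alone.

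For the lists of this section, the all-gene share of higher calls was 5.90% (P2) and 8.17% (adult). That of lower calls was 4.59% and 7.33%. In the restricted sets higher calls took 8.60% (P2) and 9.19% (adult) of all genes, and lower calls 5.40% and 8.16%. Cell cycle genes were measured at P2, where 1 of 11 was called higher and 1 lower, counts near these shares. The 2 were the cyclin gene Ccnb1 at 2.51 (1.87 to 3.31) and the replication gene Mcm3 at 0.407 (0.203 to 0.731). When restricted 2 of 11 cell cycle genes were higher, Ccnb1 at 3.93 and Ube2c, and none lower. Mcm3 was then at 0.768, and the list had a median of 1.57 against 1.06 over all genes. In the adult cells the 12 genes held 8 UMIs, 5 of Pcna and 3 of Mcm3. Of 7 interferon-response genes tested in the adult, 1 was called in each direction, both also when restricted. They were Iigp1 at 2.14 (1.59 to 2.81) and Irf7 at 0.224 (0.0609 to 0.575). At P2 1 of 2 was called higher, Cxcl10 at 10.1, with 30 of its 33 UMIs in 1 cell and a restricted ratio of 0. Junction genes had Gjc1 called higher and Gja1, Cdh5 and Esam lower of 9 at P2, but none of these 4 was called when restricted, where Gja4 alone of 8 was lower. In the adult Gja4 was called higher and Gja1 lower of 8, and when restricted Gja1 alone of 7 was called. Fatty acid handling genes were called lower in 4 of 7 at P2, Tcf15, Cd36, Mgll and Gpihbp1, and in 3 of 7 in the adult, Tcf15, Mgll and Gpihbp1. When restricted Tcf15, at 0.877, was no longer called at P2, nor Mgll, at 0.545, in the adult. Heat shock genes had Hspa1a called lower of 3 at P2 and Hsph1 higher of 5 in the adult, and the MHC list had H2-K1 lower of 3 at P2. All 3 calls ended when restricted, with Hspa1a at 0.728, Hsph1 at 0.862 and H2-K1 at 0.528, and Dnajb1 alone of 4 heat shock genes was then higher in the adult. The valve list had Postn of fibroblasts and valve interstitial cells called higher at P2, at 18.9 with UMIs in 26 cells, and Cryab in the adult. Cryab passed the level limit only through the Vwf/Prss23/Ptn cells, since no adult valve gene was tested with the limit on the comparison cells alone. Wt1, a gene of epicardium and injured endothelium, was called lower at P2 at 0.342 (0.182 to 0.587), but its restricted ratio was 0.783 (0.357 to 1.49) and was not called. In the adult Wt1 was below the level limit, but was called lower when restricted, at 0.331, and at 0.247 with the limit on the comparison cells alone. No platelet or cardiomyocyte gene was tested at either stage.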
